A study of Mus musculus with 6 samples.

Results

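The genes described here are 52 genes of the cell division cycle in mouse macrophages, chosen by name for their known roles: 22 genes of DNA replication and entry into S phase, 26 genes of mitosis and cytokinesis, and 4 regulators of G1. All 52 were among the 24054 genes of the deposited tables, and 51 of them were among the 11400 genes with enough counts to be tested. Cdc25c, a phosphatase that activates the mitotic kinase, was left out by the count filter. The cells were macrophages (BMDM) of wild-type C57BL/6 mice, grown from bone marrow precursors for 7 days in medium conditioned by L929 cells, which supplies the growth factor M-CSF. They were then kept for 24 hours with 50 µg/ml oxLDL, the oxidised form of low-density lipoprotein that macrophages of the artery wall take up, or without it. Each of the 2 groups held 3 samples, numbered 1, 2 and 3 after the WT number in their titles, and samples with the same number are called a pair here. The titles also carry an unexplained "mix", and the age and sex of the mice and the number of mice behind a sample are not given in the sources used here. Nothing in the labels says that the numbers are separate cultures, so the p-values rest on a spread between samples that may be technical.

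Cells that divide pass from G1 into S phase when D-type cyclins, induced by growth factors, switch on the kinases that inactivate the retinoblastoma proteins and so free E2F factors to transcribe the genes of DNA replication. Genes of mitosis are transcribed later, in G2, by a complex of B-MYB, MuvB and FOXM1 bound at CHR elements. CDK inhibitors such as p21 and p27 hold the kinases back. Macrophages grown in M-CSF keep dividing for some days in culture, so bulk RNA from such cultures holds transcripts of both phases. In bulk RNA, fewer dividing cells and less of each transcript per dividing cell cannot be told apart.

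Replication and mitosis genes were lower with oxLDL as groups. For most of them, though, untreated sample 3 lay further from untreated samples 1 and 2 than the treatment groups lay apart. Levels are CPM, counts scaled to a common library size with TMM factors, and a log2 fold change sets oxLDL against untreated, negative where oxLDL was lower. The median log2 fold change was -0.67 over the 22 replication genes and -0.98 over the 25 mitosis genes tested, against 0.0055 over all genes tested. These medians moved with single samples: the mitosis median was -0.57 without untreated sample 2, -0.65 without oxLDL sample 3 and -1.61 without oxLDL sample 1. With the sample number as a block they were -0.63 and -0.93, and without pair 2 they were -0.34 and -0.30. Negative values were found for 22 of 22 replication genes and 24 of 25 mitosis genes, and for 49.4% of all genes tested. With library totals alone as the scale, the median of all genes moved to 0.109 and the numbers of negative values became 21 and 24. None of this passed a test gene by gene: edgeR's quasi-likelihood test found 0 of the 51 members past an adjusted p of 0.05 in either direction (0% of all genes lower and 0% higher). At an unadjusted p under 0.05 there were 8 members lower and 0 higher, beside 8.39% and 6.3% of all genes. With the block there were 22 lower and 0 higher, beside 15.7% and 13.3% of all genes. Of these 22, 11 were replication genes, 9 mitosis genes and 2 G1 regulators. DESeq2 called 5 members lower (4.83% of all genes were called lower and 2.82% higher), namely Mcm2, Ccne2, Uhrf1, Tpx2 and Ccnd2, and limma-voom called 0. With the sample number as a block, edgeR called 1 member, the cyclin gene Ccnd1, which fell (3.98% of all genes were called lower and 1.91% higher in that fit).

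**Figure D1:**
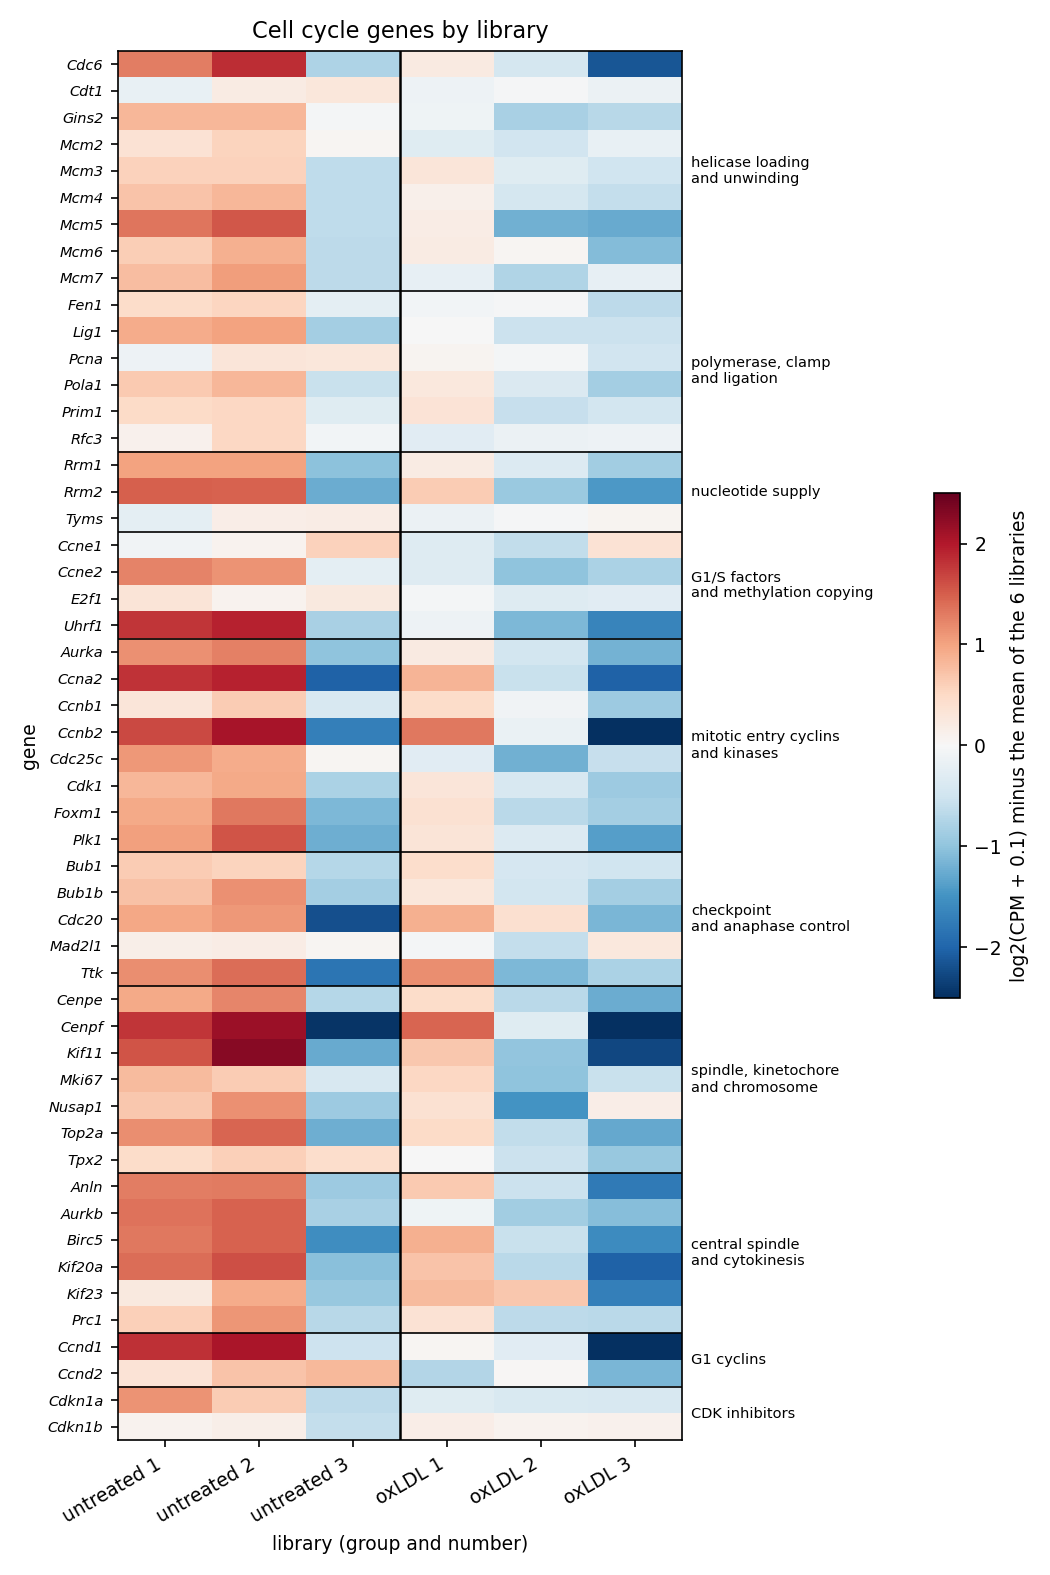
Level of each of the 52 genes (rows, grouped by role) in the 6 libraries (columns), as log2(CPM + 0.1) minus the gene's mean over the libraries; the colour scale ends at 2.5 in either direction. Untreated libraries 1 and 2 are high for most genes, and untreated library 3 was the lowest of the untreated libraries for all 25 mitosis genes tested.

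The order of the libraries was alike for most members. Untreated samples 1 and 2 were both above all 4 other libraries in 17 of 22 replication genes and 21 of 25 mitosis genes, against 23.0% of all genes tested. Untreated sample 3 was the lowest of the untreated samples in 17 replication genes and in 25 of 25 mitosis genes (43.2% of all genes). Its median distance from the mean of untreated samples 1 and 2 was -1.25 for replication and -2.19 for mitosis genes on the log2 scale, and 0.0065 for all genes tested. In 16 replication genes and 23 mitosis genes this distance was larger than the log2 fold change with oxLDL. Untreated sample 3 also enters the untreated mean behind that fold change, and this count was not made over all genes. Untreated sample 3 was below oxLDL sample 1 in 23 of 25 mitosis genes, below oxLDL sample 2 in 20 and below oxLDL sample 3 in 8. Over the 11400 genes tested these counts were 5732, 5753 and 5522. Among the oxLDL samples, sample 1 was the highest in 16 replication and 24 mitosis genes (33.7% of all genes). Sample 3 was the lowest of them in 13 and 21 (4919 of all 11400 genes).

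The libraries numbered 3 stood apart across the whole transcriptome as well. Totals ran from 13546572 to 15559310 expected counts per library. In log2 CPM over all genes tested, untreated sample 3 correlated with untreated samples 1 and 2 at r = 0.889 and 0.897 across genes, and with oxLDL sample 3 at 0.964. Of 13 macrophage markers 12 were found under the symbols used, all of them above 1 CPM, and their summed level was 37528, 29349 and 13698 CPM untreated (samples 1, 2 and 3) and 16605, 9340 and 11446 CPM with oxLDL. The sum was thus low in untreated sample 3, and 10 of 12 markers were lowest there among the untreated samples. Against the oxLDL samples the markers were unlike the mitosis genes. Untreated sample 3 was below oxLDL samples 1, 2 and 3 in 4, 3 and 3 of 12 markers. The macrophage markers had a median log2 fold change of -1.64, and 11 of 12 were negative. With the block 2 fell in edgeR, Fcgr1 and Spi1, beside 3.98% of all genes. Among markers of marrow progenitors, 3 of 11 reached 1 CPM, and the sum ran from 6.14 to 23.1 CPM untreated and from 24.9 to 38.4 CPM with oxLDL. Kit, a growth factor receptor, was the largest part of that sum (2.66, 7.56 and 21.9 CPM untreated, 23.2, 26.2 and 36.3 CPM with oxLDL), while Cd34 was at or below 0.434 CPM and Ms4a3 was at 0 in every library. Neutrophil markers summed to 11.3 to 41.5 CPM untreated and 9.48 to 13.3 CPM with oxLDL, with 6 of 8 at 1 CPM or more. The erythroid markers stayed below 1 CPM in sum, and 5 of 9 were at 0. The fibroblast markers reached at most 2.25 CPM in sum, with 1 of 9 at 0. Sums were 3.57 to 15.4 CPM for dendritic cell markers, 5.14 to 31.2 CPM for lymphocyte markers, of which Cd4 was the main part, and 13.1 to 24.97 CPM for mast cell and megakaryocyte markers, mainly Pf4. The part of these cells in the levels of the cycle genes was not tested.

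Promoters of 5 members are shown because genes of both lists followed the same order of libraries, and because replication genes are commonly driven through E2F sites and mitosis genes through CHR elements. The 5 were picked among members with a match, and each holds the motif commonly tied to its list, so they do not stand for their lists. The sequences are RefSeq's, build GRCm38.p6, and 41 of the 52 members matched that table by symbol. On both strands of the 250 bases before each start, the letters TTTCCCGC, TTTGGCGC, TTTCGCGC or TTTGCCGC were searched as E2F motifs, TTTGAA as the CHR and CCAAT as the CCAAT box. Matches of a motif may overlap each other. The 160 bases before the annotated start are printed on the strand of the gene, with matches in capitals. They lie at chr8:75109349-75109508 on the plus strand for Mcm5, chr11:98907991-98908150 on the plus strand for Cdc6, chr19:37376222-37376381 on the plus strand for Kif11, chr10:69352913-69353072 on the minus strand for Cdk1 and chr11:99024190-99024349 on the minus strand for Top2a.
Mcm5: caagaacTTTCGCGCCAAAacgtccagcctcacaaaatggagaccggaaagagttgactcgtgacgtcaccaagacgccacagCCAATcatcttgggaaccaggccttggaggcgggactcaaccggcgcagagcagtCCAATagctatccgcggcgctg
Cdc6: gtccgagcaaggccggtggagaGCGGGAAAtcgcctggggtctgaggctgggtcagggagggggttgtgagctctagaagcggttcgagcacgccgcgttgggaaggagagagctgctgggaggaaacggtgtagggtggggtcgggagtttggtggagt
Kif11: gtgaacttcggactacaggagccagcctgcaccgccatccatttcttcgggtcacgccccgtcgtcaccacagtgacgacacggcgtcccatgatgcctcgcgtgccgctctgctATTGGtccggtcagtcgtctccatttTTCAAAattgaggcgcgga
Cdk1: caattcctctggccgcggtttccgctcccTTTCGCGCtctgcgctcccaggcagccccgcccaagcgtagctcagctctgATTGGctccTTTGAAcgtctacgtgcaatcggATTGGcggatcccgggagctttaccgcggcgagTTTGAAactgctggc
Top2a: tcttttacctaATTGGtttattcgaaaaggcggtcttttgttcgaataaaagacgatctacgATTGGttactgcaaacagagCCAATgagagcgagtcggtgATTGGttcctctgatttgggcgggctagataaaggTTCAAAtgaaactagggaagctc
Mcm5 holds overlapping E2F motifs that start 153 and 149 bases before the start, and Cdc6 holds an E2F motif at 138 bases. Kif11 holds a CHR 19 bases before the start and a CCAAT box at 45. Cdk1 holds an E2F motif and CHR motifs, and Top2a holds a CHR at 23 bases with CCAAT boxes upstream of it. For Mcm5 and Kif11 the bases after the annotated start were not found near the 5′ end of a reference transcript, so the position of their start is less sure.

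Over the members with a promoter in that table, an E2F motif was found in 7 of 19 replication genes and 1 of 20 mitosis genes, and in 2.16% of all genes in the table. A CHR motif was found in 2 of 19 replication genes and 7 of 20 mitosis genes (18.3% of all genes). A CCAAT box was found in 12 of 19 and 16 of 20 (37.5% of all genes). Of members whose promoter is not shown, Mcm2 held a CHR motif and no E2F motif, and Pcna, Rrm2 and Ccnb1 held a CCAAT box only. Uhrf1 held an E2F motif and Mki67 held CHR motifs. A match is a description of letters in the window, not a site in use, and motifs with other letters or outside the window were not counted.

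Genes that load and unwind the replication helicase had a median log2 fold change of -0.71, and 9 of 9 were negative. CDC6 and CDT1 load the ring of MCM2 to MCM7 onto origins, and GINS2 is part of the complex that activates it. In Mcm5 the levels were 29.96, 34.8 and 7.51 CPM untreated (samples 1, 2 and 3) and 13.4, 5.07 and 4.85 CPM with oxLDL. Untreated samples 1 and 2 stood above all others, and untreated sample 3 lay within the oxLDL range. The log2 fold change of Mcm5 was -1.63 ± 0.68 (SE; edgeR adjusted p = 0.348, and 0.109 with the block), and its log2 ratios in pairs 1, 2 and 3 were -1.15, -2.74 and -0.62. Cdc6 measured 4.85, 7.20 and 1.09 CPM untreated and 2.29, 1.402 and 0.362 CPM with oxLDL (-1.69 ± 0.87, edgeR adjusted p = 0.430, and 0.0684 with the block). Within each pair Cdc6 was lower with oxLDL, but the groups overlapped.

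Mcm2 differed less between libraries, at 25.5, 29.4 and 20.7 CPM untreated and 16.2, 14.2 and 17.6 CPM with oxLDL. Its groups did not overlap, as was the case for 7 of the 51 members tested in the direction of lower levels, 5 of them replication genes, and for 10.6% of all genes tested. The log2 fold change of Mcm2 was -0.66 ± 0.18 (edgeR adjusted p = 0.196). Gins2 was the other helicase gene whose groups did not overlap (7.64, 7.70 and 4.16 CPM untreated, 3.97, 2.40 and 2.61 CPM with oxLDL). In Mcm3, Mcm4 and Mcm7 the ratio was negative in pairs 1 and 2 and positive in pair 3, at 0.14, 0.047 and 0.44. Mcm6 was lower in each pair, with log2 ratios of -0.42, -0.83 and -0.43. Cdt1 was nearly level, with a log2 fold change of -0.22 ± 0.16.

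The polymerase, clamp and ligation genes had a median log2 fold change of -0.49. PCNA, the sliding clamp that holds polymerases on DNA, is encoded by Pcna, which measured 147, 199 and 198 CPM untreated and 168, 157 and 116 CPM with oxLDL. Here untreated sample 3 was not low, the groups overlapped, and the log2 fold change was -0.30 ± 0.21 (edgeR adjusted p = 0.562). Fen1, the nuclease that trims Okazaki fragments, had like ratios in all pairs (-0.54, -0.56 and -0.42) and an adjusted p of 0.0675 in edgeR with the block. Lig1, the ligase that joins those fragments, had ratios of -0.94, -1.53 and 0.30. Pola1 and Prim1, subunits of the polymerase that lays primers, had log2 fold changes of -0.68 ± 0.45 and -0.45 ± 0.38. Rfc3, a subunit of the clamp loader, measured 8.94, 11.9 and 7.85 CPM untreated and 6.79, 7.41 and 7.53 CPM with oxLDL, with no overlap.

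Among genes of nucleotide supply, the subunits of ribonucleotide reductase followed the order of the libraries and thymidylate synthase did not. Rrm2, the subunit made mainly in S phase, measured 15.5, 15.3 and 2.25 CPM untreated and 8.48, 2.80 and 1.95 CPM with oxLDL. Untreated sample 3 was below both oxLDL samples 1 and 2. The log2 fold change of Rrm2 was -1.32 ± 0.86 (edgeR adjusted p = 0.530, and 0.172 with the block), and that of Rrm1 was -0.86 ± 0.57. Tyms measured 35.6, 46.9 and 48.1 CPM untreated and 37.9, 41.1 and 44.2 CPM with oxLDL. Its log2 fold change of -0.084 ± 0.16 turned to 0.016 with library totals as the scale.

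The G1/S factors and Uhrf1 had a median log2 fold change of -1.002, and 4 of 4 were lower with oxLDL in every pair. Uhrf1, which recruits the enzyme that copies DNA methylation onto new strands, had a log2 fold change of -2.22 ± 0.79, the largest of the members tested in the fit without the block (edgeR adjusted p = 0.280). With the block it was -2.03 ± 0.44 (edgeR adjusted p = 0.0702), after Ccnd1. It measured 23.7, 26.0 and 3.82 CPM untreated and 6.26, 3.07 and 2.099 CPM with oxLDL, and untreated sample 3 lay within the oxLDL range. Ccne2, a cyclin E that drives entry into S phase, measured 7.98, 7.34 and 2.80 CPM untreated and 2.62, 1.60 and 1.88 CPM with oxLDL, with no overlap. The other cyclin E gene, Ccne1, had a log2 fold change of -0.36 ± 0.34 and was the highest in sample 3 of either group. E2f1 measured 44.6, 38.0 and 42.5 CPM untreated and 34.5, 28.6 and 29.2 CPM with oxLDL, so its groups did not overlap. The ratios of E2f1 were even over the pairs (-0.37, -0.41 and -0.54), and its log2 fold change was -0.44 ± 0.14 (edgeR adjusted p = 0.238, and 0.0774 with the block). Untreated sample 3 was not low in E2f1, in contrast to most replication genes.

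**Figure D2:**
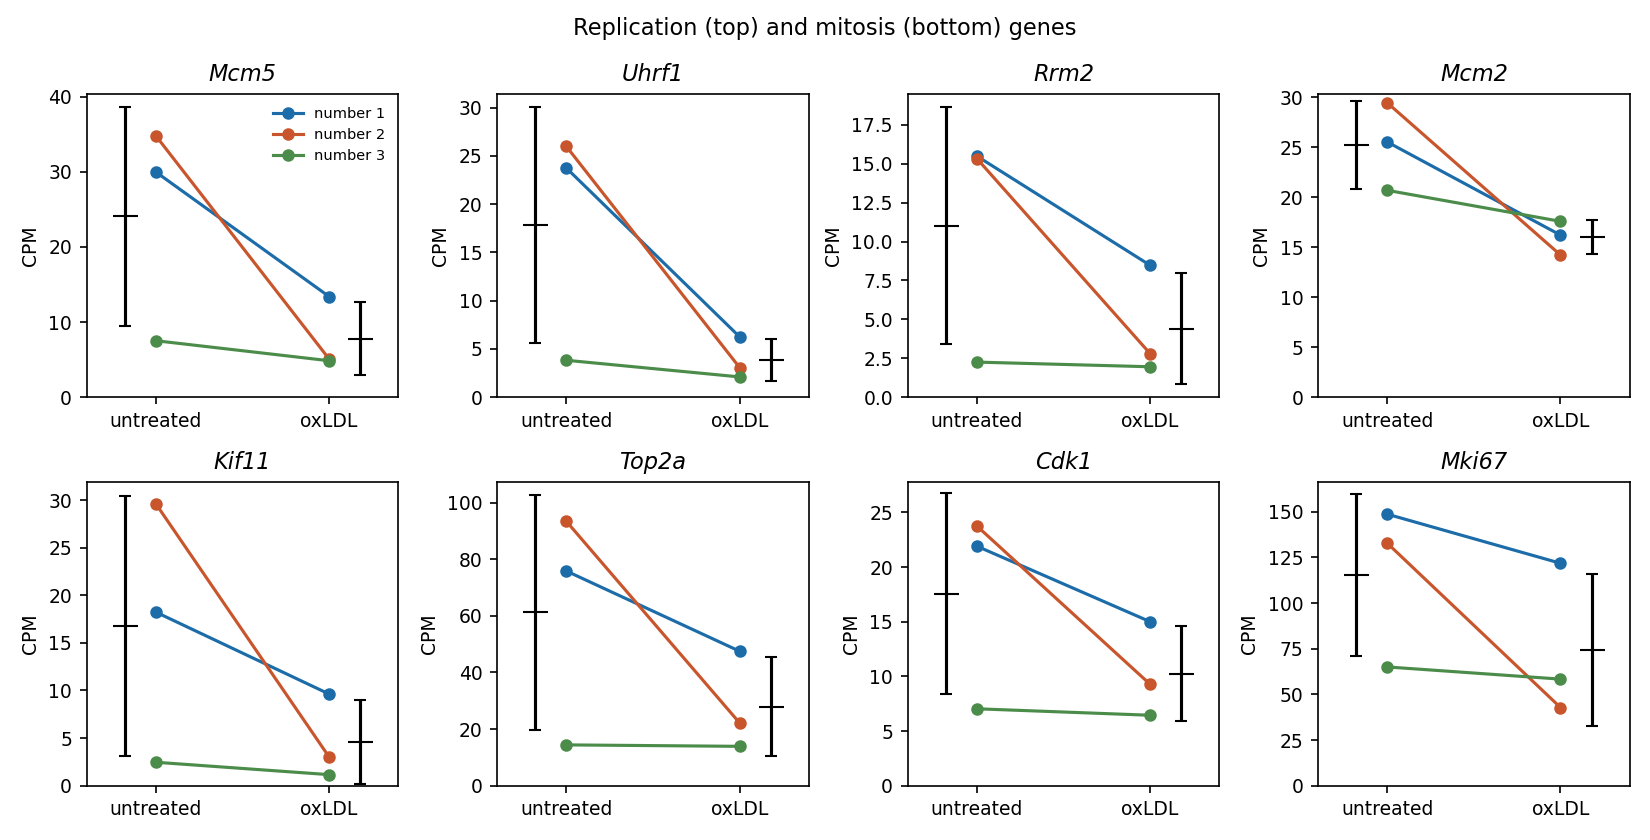
CPM of 4 replication genes (top) and 4 mitosis genes (bottom) in untreated and oxLDL samples; lines join samples of the same number, and black marks give the mean and SD of 3 samples. In Mcm5, Uhrf1, Rrm2, Kif11, Top2a and Cdk1 the line of number 3 starts far below the others and stays low.

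Mitotic entry genes, here cyclins and kinases that start mitosis and the transcription factor gene Foxm1, had a median log2 fold change of -1.14 over 7 tested members. Cdk1, the main mitotic kinase, measured 21.9, 23.8 and 7.03 CPM untreated and 15.001, 9.28 and 6.44 CPM with oxLDL. Its log2 ratios were -0.54, -1.34 and -0.12, and the log2 fold change was -0.78 ± 0.53 (edgeR adjusted p = 0.550, and 0.174 with the block). Ccna2, which encodes cyclin A2 of S phase and G2, measured 19.7, 21.5 and 1.30 CPM untreated and 10.2, 3.74 and 1.30 CPM with oxLDL. In pair 3 there was no difference at this precision, and the log2 fold change was -1.48 ± 1.11 (edgeR adjusted p = 0.585). Ccnb1, cyclin B1, measured 12.8, 16.1 and 7.78 CPM untreated and 14.3, 9.68 and 5.50 CPM with oxLDL. It was higher with oxLDL in pair 1, and its log2 fold change was -0.32 ± 0.43. Ccnb2, Plk1, Aurka and Foxm1 had log2 fold changes between -1.20 and -0.997. Cdc25c, not tested, measured 1.36, 1.22 and 0.614 CPM untreated and 0.471, 0.200 and 0.362 CPM with oxLDL.

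Checkpoint and anaphase genes had the smallest median among the mitotic roles, -0.37, and 4 of 5 were higher with oxLDL in pair 3. BUB1, BUB1B, MAD2L1 and TTK hold anaphase until chromosomes are attached, and CDC20 activates the ligase that starts it. In pair 3 the log2 ratios were 0.20 for Bub1, 0.23 for Mad2l1 and 0.98 for Ttk, and Cdc20 was higher as well. The level of Cdc20 in the libraries numbered 3 was low, at 0.546 CPM untreated and 1.23 CPM with oxLDL. The log2 fold change of Cdc20, -0.24 ± 0.91, turned positive in limma-voom (0.16).

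Spindle and chromosome genes had a median of -1.02, and 7 of 7 were more than 2-fold lower in pair 2. Kif11, the motor that separates spindle poles, measured 18.2, 29.6 and 2.46 CPM untreated and 9.62, 3.00 and 1.16 CPM with oxLDL (-1.86 ± 1.066, edgeR adjusted p = 0.474, and 0.121 with the block). Top2a, the topoisomerase that untangles sister chromosomes, measured 75.8, 93.4 and 14.4 CPM untreated and 47.5, 22.2 and 13.9 CPM with oxLDL. In pair 3 its level hardly differed, and the log2 fold change was -1.14 ± 0.76 (edgeR adjusted p = 0.538). Mki67, the proliferation marker Ki-67 that coats mitotic chromosomes, measured 149, 133 and 65.0 CPM untreated and 122, 42.8 and 58.3 CPM with oxLDL. Its log2 fold change was -0.64 ± 0.49 (edgeR adjusted p = 0.592), and the groups overlapped. Tpx2, which activates Aurora A on the spindle, was the mitosis gene among the 25 tested whose groups did not overlap (22.1, 24.0 and 21.6 CPM untreated, 15.9, 11.02 and 8.18 CPM with oxLDL). Its log2 fold change was -0.95 ± 0.26 (edgeR adjusted p = 0.192, and 0.0669 with the block), and untreated sample 3 was level with the other untreated samples. Nusap1 went in opposite directions in pairs 2 and 3, at 15.9 against 2.47 CPM in pair 2 (log2 ratio -2.62) and 3.76 against 8.03 CPM in pair 3, untreated first.

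Central spindle and cytokinesis genes had a median of -1.04. Aurkb, the kinase of the chromosomal passenger complex, measured 16.3, 17.6 and 3.55 CPM untreated and 5.79, 3.40 and 2.97 CPM with oxLDL (-1.62 ± 0.63, edgeR adjusted p = 0.324, and 0.114 with the block). Birc5, which encodes survivin of the same complex, had ratios of -0.41, -2.01 and -0.020. Kif23, a motor of the central spindle, measured 12.9, 20.7 and 5.599 CPM untreated and 18.9, 17.4 and 3.26 CPM with oxLDL. It was the member nearest to no difference in mitosis, and its log2 fold change of 0.015 ± 0.74 was -0.12 with the block. Kif20a, Prc1 and Anln had log2 fold changes of -1.31, -0.76 and -1.10.

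The contrast of replication with mitosis depended on the pair. Replication genes had median log2 ratios of -0.57 in pair 1, -1.14 in pair 2 and -0.26 in pair 3, and mitosis genes had -0.45, -1.91 and -0.15, against medians of 0.012, 0.014 and -0.015 over all genes tested. Mitosis genes were thus lower than replication genes by 0.77 in pair 2, and higher by 0.12 in pair 1 and by 0.12 in pair 3. The SD of this difference over the pairs was 0.51, and the difference between the medians of the fitted log2 fold changes was -0.32. The SD describes single pairs and the fitted value rests on all 3, so their sizes are not directly comparable. All 47 tested genes of both lists were lower with oxLDL in pair 2 (49.0% of all genes). In 22 of 22 replication and 25 of 25 mitosis genes the ratio of pair 2 was below that of pair 1 (6032 of all 11400 genes). Ratios of pair 2 went beyond 2-fold lower in 13 replication and 20 mitosis genes (10.9% of all genes), those of pair 1 in 4 and 1 (7.96%) and those of pair 3 in 1 and 3 (6.12%). Lower ratios in all 3 pairs were found for 14 replication genes, 15 mitosis genes and 27% of all genes tested. Each pair holds a single library per treatment, so whether the pairs differ was not tested.

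**Figure D3:**
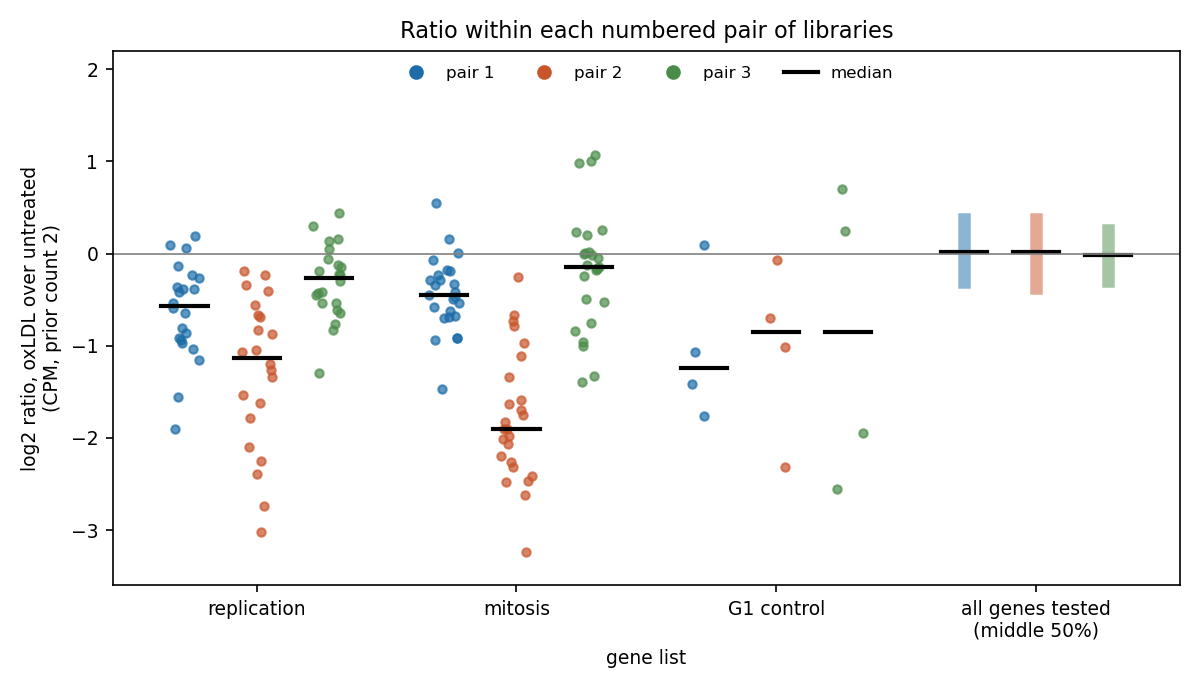
Log2 ratio of oxLDL to untreated CPM (prior count 2) within each numbered pair, by gene list; points are genes, black bars are medians, and for all genes tested the coloured bars span the middle 50%. Pair 2 has the lowest medians for replication (-1.14) and mitosis (-1.91). Pair 3 has the medians nearest to 0 for these lists (-0.26 and -0.15), with 17 of 22 and 17 of 25 points below 0.

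Calls depended on the libraries numbered 3. In edgeR without untreated sample 3, 6 members were called, all lower: Mcm7, Lig1, Uhrf1, Ccne2, Aurkb and Cdkn1a. In that fit 3.81% of all genes were called lower and 2.53% higher. The fit with the block and without pair 3 rests on samples 1 and 2 of each group alone. Over all genes these correlated at r = 0.984 untreated and 0.983 with oxLDL. That fit called 22 of 52 members, all lower, beside 15.8% of all genes lower and 14% higher. These were 12 of 22 replication genes, 7 of 26 mitosis genes and 3 of 4 G1 regulators, among them Mcm2, Mcm4, Mcm5, Mcm6, Mcm7, Rrm1, Cdk1, Ccna2, Plk1 and Aurka. Without pair 1 or without pair 2, edgeR with the block called 0 members and 0 of all genes. DESeq2 with the block called 14 members, all lower (10.1% of all genes were called lower and 6.17% higher), 6 of replication, 6 of mitosis and 2 of G1.

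The G1 regulators held the member that passed. Ccnd1, cyclin D1, which growth factors induce to start the cycle, measured 149, 173 and 29.2 CPM untreated and 43.6, 34.6 and 4.85 CPM with oxLDL. Every pair was lower with oxLDL, although untreated sample 3 was below oxLDL samples 1 and 2. The log2 ratios were -1.77, -2.31 and -2.56, and with the block Ccnd1 fell, by a log2 value of -2.205 ± 0.19 (edgeR adjusted p = 0.0286). Without the block the value was -2.08 ± 0.96 and did not pass (edgeR adjusted p = 0.385). Its call ended without pair 1 or without pair 2, as did all others. The largest difference of Ccnd1 was in pair 3, the pair whose medians for replication and mitosis genes were nearest to 0.

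Cyclin D2 and the CDK inhibitors did not pass. Ccnd2 measured 38.6, 50.4 and 53.3 CPM untreated and 18.3, 31.0 and 13.7 CPM with oxLDL, and its groups did not overlap. The log2 fold change of Ccnd2 was -1.18 ± 0.33 (edgeR adjusted p = 0.198, and 0.0695 with the block). Cdkn1a, which encodes the inhibitor p21, measured 611, 437 and 180 CPM untreated and 228, 216 and 212 CPM with oxLDL. It differed widely among untreated samples and little among oxLDL samples, and its log2 fold change was -0.90 ± 0.43 (edgeR adjusted p = 0.405). Cdkn1a was therefore lower with oxLDL in pairs 1 and 2 (-1.42 and -1.01) and higher in pair 3 (0.24), and the samples with high levels of Cdkn1a were those with high levels of replication and mitosis genes. Cdkn1b, which encodes p27, measured 49.6, 52.05 and 31.1 CPM untreated and 53.01, 49.6 and 50.6 CPM with oxLDL (0.21 ± 0.22, edgeR adjusted p = 0.698).

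**Figure D4:**
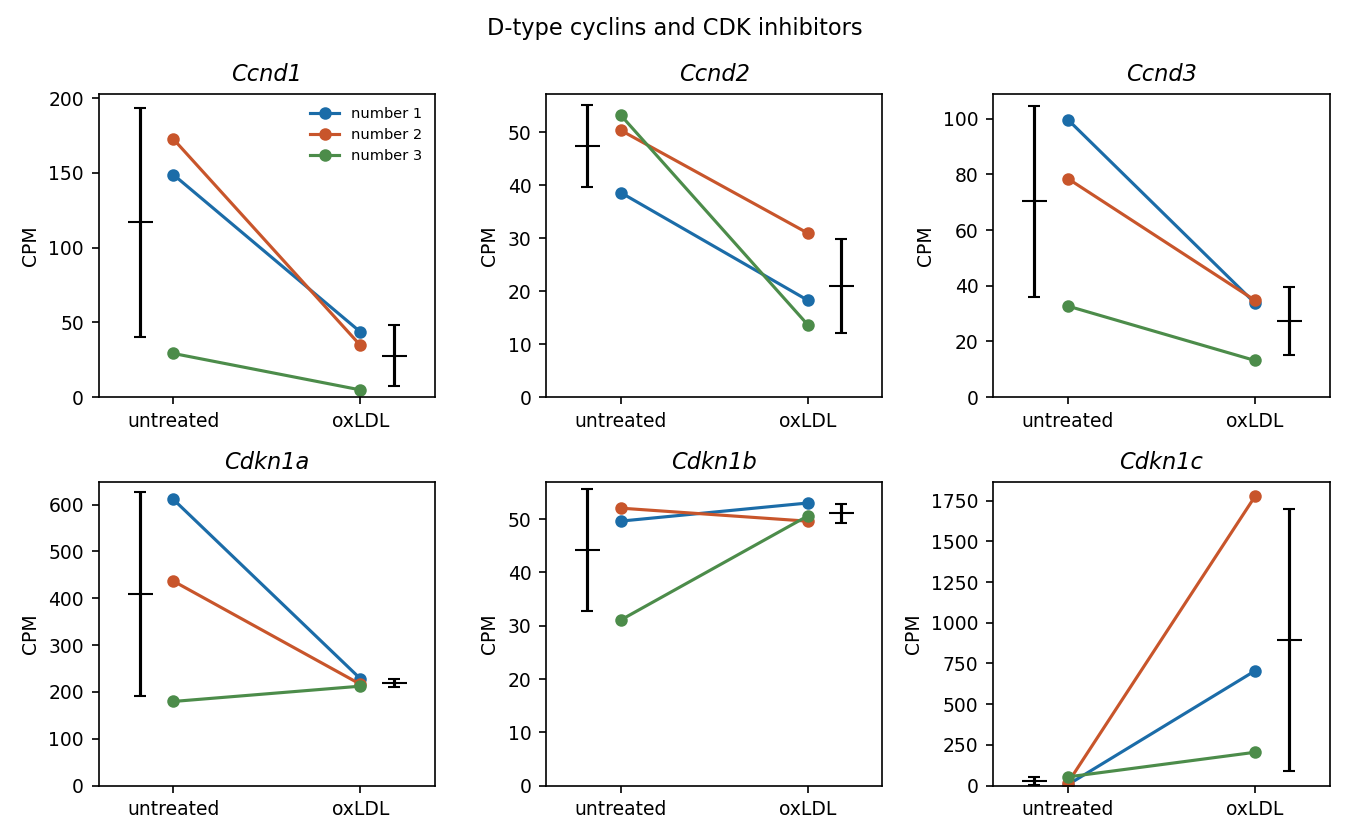
CPM of the D-type cyclins (top) and CDK inhibitors (bottom) in untreated and oxLDL samples; lines join samples of the same number, and black marks give the mean and SD of 3 samples. The lines of the cyclins go down in every pair, those of Cdkn1a meet near 212 to 228 CPM with oxLDL, and those of Cdkn1c go up.

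Other genes of replication and mitosis, from lists that were likewise drawn up with earlier results of these data known, mostly had negative values. Of 54 other replication and S phase genes tested, 45 had negative values with a median of -0.41, and with the block 2 fell and 0 rose (3.98% and 1.91% of all genes). Timeless, which travels with the replication fork, fell from 8.41 ± 5.09 to 1.52 ± 0.807 CPM (SD, n = 3; log2 fold change -2.40 ± 0.43 with the block, edgeR adjusted p = 0.0497, and 0.176 without it). With the block and library totals as the scale, Timeless no longer passed. Dck, the kinase that salvages deoxycytidine, measured 156, 186 and 60.8 CPM untreated and 34.0, 20.7 and 18.9 CPM with oxLDL, and fell as well (-2.35 ± 0.32 with the block, edgeR adjusted p = 0.0362; adjusted p = 0.120 in the fit that leaves the number out). Of 65 other mitosis genes tested, 62 had negative values with a median of -0.80, and 0 passed in edgeR with or without the block. At an unadjusted p under 0.05, 3 of them were lower and 1 higher without the block, beside 8.39% and 6.3% of all genes, and 17 and 1 with it, beside 15.7% and 13.3%. The 3 with the largest values were Fam64a (-2.48 ± 1.05), Iqgap3 (-2.37 ± 1.11) and Pbk (-2.37 ± 1.26). In Pbk, a mitotic kinase, untreated sample 3 was at 0.137 CPM and untreated samples 1 and 2 at 4.37 and 5.11 CPM.

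Other regulators of G1, the RB and E2F families and the DREAM complex were split in direction. Of 27 tested, 16 had negative values with a median of -0.15. With the block 1 fell and 0 rose, beside 3.98% and 1.91% of all genes, so the list was near the share of all genes. The 1 was Ccnd3, which encodes cyclin D3. Ccnd3 measured 99.6, 78.5 and 32.7 CPM untreated and 33.8, 34.8 and 13.2 CPM with oxLDL, with log2 ratios of -1.56, -1.17 and -1.30 (-1.35 ± 0.13 with the block, edgeR adjusted p = 0.0286; adjusted p = 0.324 without it). Cdkn1c, which encodes the CDK inhibitor p57, is named after its values were seen: it measured 6.14, 18.3 and 53.8 CPM untreated and 705, 1775 and 205 CPM with oxLDL. Its groups did not overlap, but the log2 fold change of 5.10 ± 1.19 did not pass (edgeR adjusted p = 0.162, and 0.0859 with the block). Its log2 ratios were 6.81, 6.59 and 1.93 in pairs 1, 2 and 3.

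Some of these levels rest on reads that map to several genes. The expected counts were not whole in all 6 samples for 8 of the 52 members, Tyms, E2f1, Ccne2, Ccna2, Kif11, Kif20a, Cenpf and Birc5, and likewise for Ccnd3, so a share of their reads was divided with other genes.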

How the data were processed

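Poly(A) RNA of 3 oxLDL-treated and 3 untreated samples was sequenced with a stranded kit, per the labels' protocols, and samples were grouped and numbered by their titles. The authors deposited expected counts per gene (RSEM 1.2.15, Bowtie2 2.1.0 and edgeR are listed in the submitters' processing notes), which were rounded to whole numbers here. They also deposited a normalised signal, CPM of TMM-scaled library sizes per the file's name: 100% of its values were whole reads times a constant (tolerance 0.005), 99.9% equalled the rounded counts, and edgeR on those reads called 0 genes without and 672 with the block. The notes list the human build hg19 for these mouse samples, so no coordinates are drawn from the tables. The annotation and the strand setting of the counting were not given in the sources used here.

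Genes were kept by filterByExpr (minimum count 10, minimum total 15). The main test was edgeR 4.0.16 (quasi-likelihood, robust, TMM, R 4.3.3) without further terms than group, fitted on all 11400 genes with Benjamini-Hochberg adjustment, and adjusted p-values below 0.05 passed. Each SE is the log2 fold change over the root of its F value. Ratios within pairs are differences of log2 CPM with a prior count of 2. The labels do not say what a number marks, but the deviations of samples 1, 2 and 3 from their group means correlated (across genes, r = 0.66, 0.45 and 0.70, where 0.1 was required; between unlike numbers r was 0.63 for untreated 2 with oxLDL 1, 0.20 for untreated 1 with oxLDL 2 and negative otherwise, so numbers 1 and 2 are not clearly told apart). By the 0.1 rule the numbers were taken to pair the samples, and the fit with the number as a block is given where it matters. Numbers 1 and 2 swapped would also pass that rule, so it could not decide between these pairings. DESeq2 1.42.0, limma-voom (limma 3.58.1), other scalings and filters, and leaving out samples were alternatives. The scripts were tested on simulated data.

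The members and gene lists were chosen with earlier results of these data known, so no list was tested as a set. Values in every sample are given for members past the threshold, the 3 largest differences of each list, the G1 regulators and 8 standard genes (Mcm2, Pcna, Rrm2, E2f1, Ccnb1, Cdk1, Top2a and Mki67). Of other lists, genes past the threshold with the block are named, or else the 3 largest differences. Other members are named to fill out their role and were chosen after their values were seen. Depth was 13546572 to 15559310 counts per library.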

Additional observations from a re-analysis of the deposited data

How the results depend on the processing

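All counts below are of genes past an adjusted p of 0.05, and the number without the block in edgeR was 0 for all genes, for each list of members and for the other cell cycle genes. With the replicate block it was 672 for all genes (454 lower, 218 higher), 0 for replication, 0 for mitosis, 1 for G1 and 3 for other cycle genes, and the same with reads recovered from the deposited CPM. DESeq2 gave 872 for all genes, 3, 1 and 1 for replication, mitosis and G1, and 7 for other cycle genes, and DESeq2 with the replicate block gave 1853, 6, 6, 2 and 24. For all genes limma-voom gave 10 and no filter 8, with 0 members each. Alternatives added after seeing the data combined the block with RLE size factors (689 for all genes, 0, 0, 1 and 5) or with library totals (612, 0, 0, 1 and 2). Library totals moved the median log2 fold change of all genes from 0.0055 to 0.109. RLE size factors, library totals or a filter of 1 CPM in 3 samples, each without the block, gave 0 for all genes and for every list.

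Leaving out samples gave ranges, with the highest without number 3. Without single samples and no block, the count ran from 0 to 737 for all genes, 0 to 4 for replication, 0 to 1 for mitosis, 0 to 1 for G1 and 0 to 6 for other cycle genes. Leaving out untreated sample 3 gave the 737, and leaving out oxLDL sample 3 gave 31. With the block and a pair left out, it ran from 0 to 3446, 0 to 12, 0 to 7, 0 to 3 and 0 to 61, the highest without pair 3. The difference between the medians of mitosis and replication genes ran from -0.68 to 0.046. The cause was not tested.

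Of 60 single genes, 26 of 1257 values under alternatives had the opposite sign, none past the threshold. Kif23 was -0.12 with the block and -0.12 with the block on recovered reads, -0.15 in DESeq2 with the block, -9.4e-05 with RLE, -0.0011 in DESeq2, -0.12 in limma-voom, -0.13 with RLE and the block and -0.011 with library totals and the block. With samples left out Kif23 ran from -0.35 to 0.501 without the block and was -0.498, -0.054 and 0.14 with it (without pairs 1, 2 and 3). Cdc20 was 0.0069 in DESeq2 with the block, 0.16 in limma-voom and 0.079 with library totals and the block, and with samples left out ran from -0.76 to 0.15 without the block and was 0.028, 0.38 and -0.37 with it. Tyms was 0.016 and 0.029 with library totals, without and with the block. Without pair 2, Mad2l1 was 0.021, Ttk 0.42 and Nusap1 0.37. A further 84 values passed where edgeR without the block did not, 30 of them with the block and without pair 3.

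Depth limits the genes at about 1 CPM in libraries numbered 3, such as Cdc6, Ccnb2, Cdc20, Ttk and Cenpf.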

Other observations

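Genes of the p53 pathway, which arrests the cycle after damage and induces Cdkn1a, were listed beside the cycle genes. Of 21 tested, 16 had negative log2 fold changes with a median of -0.20, and 0 passed in edgeR with or without the block (0% and 3.98% of all genes were called lower without and with it). At an unadjusted p under 0.05, 1 was lower and 0 higher without the block, beside 8.39% and 6.3% of all genes, and 6 and 1 with it, beside 15.7% and 13.3%. The 3 with the largest values were Sesn1, Gadd45a and Btg2. Sesn1, a stress-induced regulator of growth signalling, was at 286, 247 and 11.7 CPM untreated (samples 1, 2 and 3) and 85.1, 39.2 and 8.97 CPM with oxLDL, with a log2 fold change of -2.03 ± 1.24. Gadd45a, a growth arrest gene whose counts were not whole in 6 samples, measured 5.596, 10.7 and 52.2 CPM untreated and 44.4, 63.3 and 64.3 CPM with oxLDL (1.33 ± 0.82, edgeR adjusted p = 0.503). Btg2, an antiproliferative gene, measured 96.0, 89.1 and 21.3 CPM untreated and 35.9, 30.9 and 16.9 CPM with oxLDL. In all 3 genes untreated sample 3 was nearer to the oxLDL samples than to untreated samples 1 and 2.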
